A study of Mus musculus with 2 samples.

Results

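The miR-99/100 and miR-125 families were examined in the mouse embryonic forebrain through their 6 hairpin genes, Mir99a, Mir99b and Mir100 of the first family and Mir125a, Mir125b-1 and Mir125b-2 of the second. The 6 were taken by gene symbol from the 1973 genes of the deposited count files, and all 6 were found. The 2 libraries form 1 group of healthy B6NCrl embryos at 10.5 days of development, with no allele, treatment or agent named in the labels. Replicate 1 came from the forebrains of 69 embryos and replicate 2 from those of 51 embryos, males and females pooled, so a value is the average of a pool and says nothing of the spread between embryos. Gene-strand counts came to 3256070 in replicate 1 and 3574530 in replicate 2, and levels are given relative to these totals, as CPM.

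A miRNA gene is transcribed into a hairpin, from which Drosha and Dicer cut a short duplex. Either arm, called 5p and 3p by its place in the hairpin, can guide an Argonaute protein to messenger RNAs that match its seed, bases 2 to 8 from the 5′ end. miR-125 is the vertebrate relative of lin-4, the first miRNA described in the worm Caenorhabditis elegans, where lin-4 and let-7 time development. In mammals miR-125 and let-7 repress Lin28, an RNA-binding protein that blocks let-7 maturation, and miR-125b is known to promote neuronal differentiation. The miR-99/100 family is an ancient family of animal miRNAs, known in mammals for repressing the growth kinase Mtor. Both families are also made outside the nervous system, in mesenchyme and blood cells among others.

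The mature sequences of the 5p arms show what separates the families and what the counts can tell apart. They are the RefSeq sequences on GRCm38.p6, found for 6 of the 6 genes, with the seed in capitals.
miR-99a-5p: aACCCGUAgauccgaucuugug
miR-100-5p: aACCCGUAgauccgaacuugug
miR-99b-5p: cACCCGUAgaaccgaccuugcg
miR-125a-5p: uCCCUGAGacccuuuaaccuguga
miR-125b-5p: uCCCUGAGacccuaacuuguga
The 3 genes of the miR-99/100 family thus share 1 seed, ACCCGUA, and the 3 genes of the miR-125 family share another, CCCUGAG. Differences are written as the base of the first-named sequence, its position counted from 1 at the 5′ end, and the base of the second. miR-99a-5p and miR-100-5p differ by 1 base, U16A. miR-99a-5p and miR-99b-5p differ by 4 bases, A1C, U11A, U16C and U21C, none of them in the seed. miR-125b-5p, of 22 bases, and miR-125a-5p, of 24 bases, are identical over their first 13 bases.

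The 5p arm of miR-125b is the same sequence at 2 loci, and the deposited counts gave reads that map to several places to no gene. Mir125b-1 and Mir125b-2 could therefore be counted only through reads that reach beyond this arm or come from the 3p arms, which differ between the loci. The 3p arms are shown for that reason, again with bases 2 to 8 in capitals.
miR-125b-1-3p: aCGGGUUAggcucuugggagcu
miR-125b-2-3p: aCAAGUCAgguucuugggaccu
They differ by 5 bases, G3A, G4A, U7C, C11U and G20C. The counts of Mir125b-1 and Mir125b-2 below are lower limits, whereas each mature sequence of the other 4 genes occurs at 1 locus in the RefSeq table. Their CPM is not a lower limit, because the totals it is relative to also leave out reads that map to several places. The hairpins of Mir99a, Mir100, Mir125a and Mir125b-1 are in that table, and those of Mir99b and Mir125b-2 are not. None of the 22-base windows of Mir99a (44), Mir100 (59) and Mir125a (47) occurred in another entry, against 1 of 56 in Mir125b-1, which is the 5p arm itself. The Mir125b-1 figure leaves out windows shared only with the hairpin of Mir125b-2.

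The forebrain pools held abundant miR-99/100 and far fewer counted reads of miR-125. The 6 genes together had 234133 counts in replicate 1 and 224168 in replicate 2. That was 7.19% of the gene counts in replicate 1 (95% exact Clopper-Pearson interval 7.16 to 7.22) and 6.27% in replicate 2 (6.25 to 6.30), or 6.73% ± 0.65 (SD, n = 2). The miR-99/100 genes held 6.33% ± 0.60 and the miR-125 genes 0.397% ± 0.054 (SD, n = 2). The miR-125 share leaves out any read that fits both miR-125b loci. The exact intervals reflect the counting of reads within 1 library alone. PCR copies of a molecule are counted as separate reads, so the intervals can be too narrow even for the sampling of molecules. In bulk tissue, fewer cells of a type and less RNA per cell cannot be told apart, so the shares do not say which cells carried these miRNAs.

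Among the miR-99/100 genes, Mir99a (ENSMUSG00000065530.1) was the highest, with 31196 CPM in replicate 1 and 26882 CPM in replicate 2. Its mean of 29039 ± 3050 CPM (SD, n = 2) put it at rank 6 of the counted genes. Mir99b (ENSMUSG00000065396.1) had 23539 CPM in replicate 1 and 21588 CPM in replicate 2, with a mean of 22564 ± 1380 CPM and rank 9. Both libraries therefore placed these genes among the 10 most abundant counted miRNA genes of the tissue. This order leaves out reads that fit several loci, so a miRNA made from several loci can stand too low in it. Such reads were 79.2% as many as the counted ones for replicate 1, and 77.8% as many for replicate 2. The places of all 6 members are thus places among counted reads, not among all miRNAs of the tissue. Mir100 (ENSMUSG00000093011.1) had 12816 CPM in replicate 1 and 10650 CPM in replicate 2, with a mean of 11733 ± 1532 CPM and rank 20. Of the reads counted for the family, Mir99a held 45.8% ± 0.50, Mir99b 35.7% ± 1.2 and Mir100 18.5% ± 0.68 (SD, n = 2). No library changed this order, and none of the 3 genes overlapped another in its values.

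Among the miR-125 genes, Mir125a (ENSMUSG00000065479.1) led, with 2977 CPM in replicate 1 and 2380 CPM in replicate 2. Its mean was 2678 ± 422 CPM and its rank 66, and its SD of 15.7% of the mean was the widest of the 6 genes. Mir125b-1 (ENSMUSG00000093354.1) had 1072 CPM in replicate 1 and 938 CPM in replicate 2, a mean of 1005 ± 94 CPM at rank 106. Mir125b-2 (ENSMUSG00000065472.1) had 308 CPM in replicate 1 and 274 CPM in replicate 2, a mean of 291 ± 24 CPM at rank 171. These counts amount to 1002 reads of Mir125b-2 in replicate 1 and 980 in replicate 2, the fewest of any member. Of the reads counted for the family, 67.3% ± 1.5 came from Mir125a, 25.4% ± 1.1 from Mir125b-1 and 7.35% ± 0.40 from Mir125b-2 (SD, n = 2). The share of Mir125a is an upper limit, because the counts of both miR-125b genes are lower limits.

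Neighbours in the order Mir99a, Mir99b, Mir100, Mir125a, Mir125b-1, Mir125b-2 did not overlap over the 2 libraries. The narrowest step was from Mir99a to Mir99b, with a ratio of 1.33 in replicate 1 and 1.25 in replicate 2. Their means differed by 6475 CPM, against 4430 CPM for the sum of their SDs. The widest was from Mir100 to Mir125a, with a ratio of 4.31 in replicate 1 and 4.47 in replicate 2. These steps were not tested, since with genes paired by library the smallest two-sided p of an exact permutation test over 2 libraries is 0.5. The places of both miR-125b genes in this order hold for the counted reads only. CPM was not divided by length: the mature sequences of the members are 21 to 24 bases long, and read lengths were not examined.

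**Figure D1:**
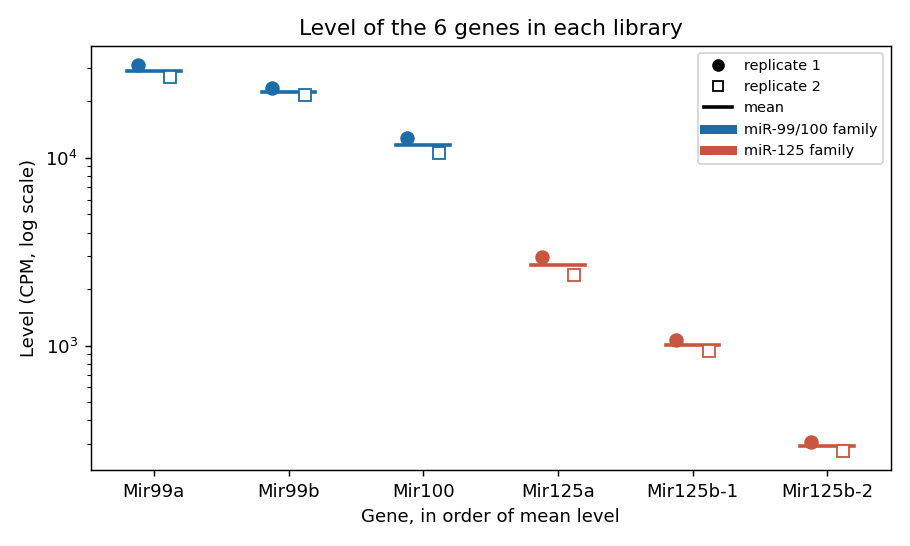
Level of each gene in CPM on a log axis, with replicate 1 as a filled circle, replicate 2 as an open square and the mean as a bar, in blue for miR-99/100 and red for miR-125. Replicate 1 lies above replicate 2 for each of the 6 genes, and the steps between neighbouring genes are wider than the gap between the libraries.

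**Figure D2:**
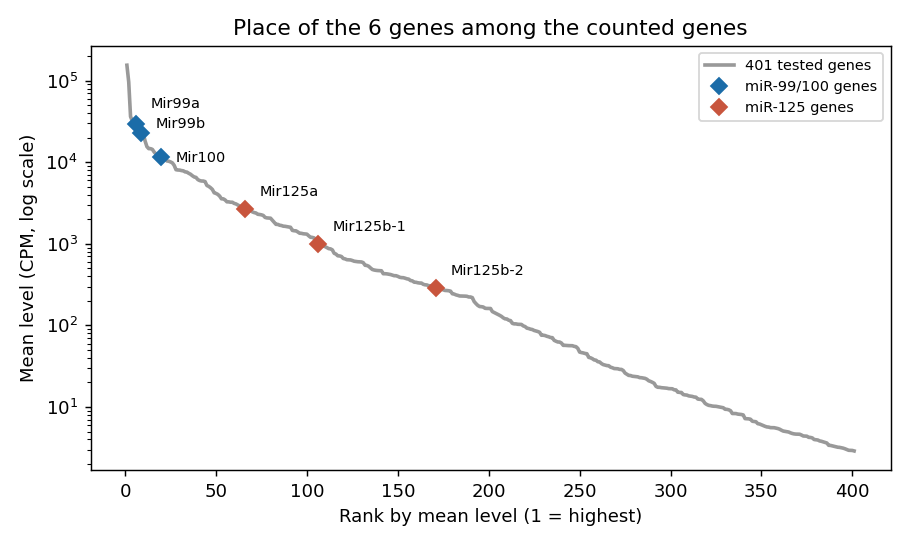
Mean level in CPM on a log axis against rank for the 401 tested genes, as a grey line, with the 6 genes as diamonds. By counted reads, Mir99a, Mir99b and Mir100 stand at ranks 6, 9 and 20, and the miR-125 genes at ranks 66, 106 and 171.

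By the naming rule, the counted genes next to each member in mean CPM were also read off, with the difference of their mean log2 level over 2 libraries as the measure of likeness. Mir99a lay between Mir126a, a miRNA of endothelial cells that was 0.07 higher, and Mir30e, 0.27 lower. Mir99b lay between Mir26b, 0.03 higher, and Mir93, a relative of miR-17 that was 0.01 lower. Mir100 lay between Mir411 of the imprinted Dlk1-Dio3 region, 0.0032 higher, and Mir130b, 0.01 lower. Mir125a had Mir341 above it and the epithelial miRNA Mir205 below it, Mir125b-1 had Mir28a and Mir96, and Mir125b-2 had Mir19a and Mir700, each within 0.04. Nearness in level over 2 libraries of 1 group is a description and gives no correlation.

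The members sit in 3 genomic clusters that each pair a miR-99/100 gene with a miR-125 gene around a let-7 gene, all on the plus strand of mm10. On chromosome 16, Mir99a (77598936 to 77599000) is followed by Mirlet7c-1 and, 47.3 kb from its start, by Mir125b-2 (77646273 to 77646343), all in introns of the long non-coding RNA gene Mir99ahg. Mir125b-2 also overlaps an exon of C130023A14Rik on the same strand, and Mir99a an intron of Gm11146 on the other strand. On chromosome 17 the cluster spans 692 bases, with Mir99b (17830188 to 17830257), Mirlet7e and Mir125a (17830812 to 17830879) inside the protein-coding gene Spaca6. There Mir99b is intronic, while Mir125a overlaps an annotated exon. On chromosome 9, Mir100 (41531425 to 41531504), Mirlet7a-2 and Mir125b-1 (41581926 to 41582002) lie in introns of the non-coding genes 3110039I08Rik and Gm49317, with Mir125b-1 starting 50.5 kb after Mir100. Mir125b-1 also overlaps an exon of Gm28119 on the same strand, and Mir100 an exon of Gm48742 on the other strand.

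No opposite-strand read was counted at any of the 6 genes. A count of 0 allows up to 3 counts, or 0.921 CPM in replicate 1 and 0.839 CPM in replicate 2. Reads from genes that overlap a member on its own strand cannot be told apart from reads of the hairpin in these counts.

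In each cluster the miR-99/100 gene had more counted reads than the miR-125 gene. On chromosome 17, where neither gene shares a mature sequence with another locus of the RefSeq table, Mir99b exceeded Mir125a 7.91-fold in replicate 1 and 9.07-fold in replicate 2, a log2 ratio of 3.08 ± 0.14 (SD, n = 2). These hairpins start 624 bases apart. On chromosome 9 the log2 ratio of Mir100 over Mir125b-1 was 3.54 ± 0.05, and on chromosome 16 that of Mir99a over Mir125b-2 was 6.64 ± 0.03 (SD, n = 2). Both of these are upper limits, because the miR-125b counts are lower limits. Summed over the 3 clusters, the log2 ratio was 4.0 ± 0.06 (SD, n = 2), also an upper limit.

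The 2 families ranked the clusters differently. In the miR-99/100 family the gene of chromosome 16 led, followed by those of chromosomes 17 and 9. In the miR-125 family the gene of chromosome 17 led, followed by those of chromosomes 9 and 16. The order in the miR-125 family holds for the counted reads only, because 2 of its 3 genes are lower limits. Mir125b-1 was 6203 reads short of Mir125a in replicate 1 and 5155 in replicate 2, which is 0.241% and 0.185% of the reads that mapped to several places in these libraries. The reads that would bring both miR-125b loci together up to Mir99a and Mir100 number 138814 in replicate 1 and 129827 in replicate 2. Reads that mapped to several places numbered 2577249 in replicate 1 and 2780180 in replicate 2, so the needed reads are 5.39% of them in replicate 1 and 4.67% in replicate 2. How many of these reads were miR-125b-5p is not given by the files.

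The let-7 genes between the members were counted at low levels. Mirlet7c-1 had 44 counts in replicate 1 and 31 in replicate 2, and Mirlet7a-2 had 48 counts in replicate 1 and 36 in replicate 2. Both are lower limits, since their 5p arms are made from several loci. Mirlet7e was not among the counted genes.

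**Figure D3:**
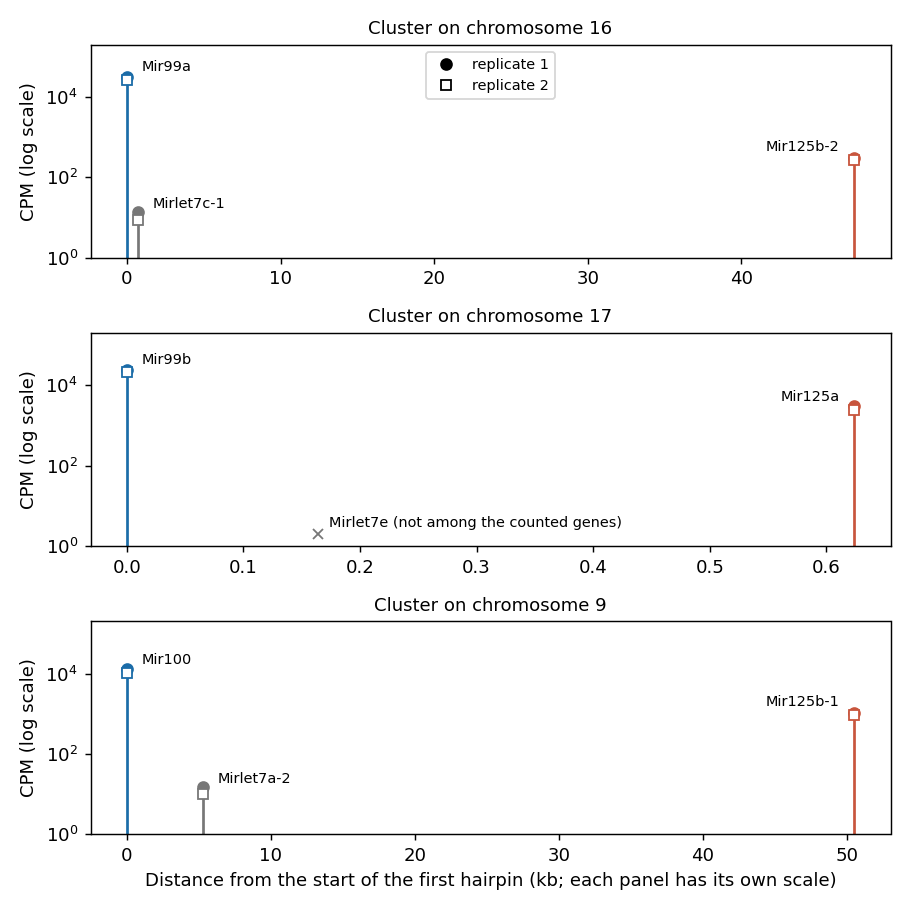
Levels along the 3 clusters, with distance in kb from the start of the first hairpin on the horizontal axis, a different scale in each panel, and CPM on a log axis. Replicate 1 is a filled circle and replicate 2 an open square, and the stem ends at the mean. In each panel the first gene, of the miR-99/100 family in blue, stands above the last, of the miR-125 family in red.

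A gene outside the 3 clusters carries the miR-125 seed and reached the level of Mir125a. Its 5p arm is shown beside those of the members for the shared seed.
miR-351-5p: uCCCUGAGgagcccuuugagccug
Mir351, on the minus strand of the X chromosome, had 2589 CPM in replicate 1 and 2591 CPM in replicate 2, between the values of Mir125a in the 2 libraries. miR-351-5p and miR-125a-5p are identical over their first 8 bases. Of the reads counted for the 4 genes with this 5p seed and at least 1 count, Mir125a held 42.9% in replicate 1 and 38.5% in replicate 2, and Mir351 held 37.3% in replicate 1 and 41.9% in replicate 2. Their order thus changed between the libraries, and the levels of these genes did not differ beyond their spread. The shares of Mir125a and Mir351 are upper limits, because the miR-125b counts are lower limits. Mir6367 and Mir6394, whose mature sequences also hold the seed, had 0 counts in both libraries. No mature sequence outside the family carried the miR-99/100 seed among the 1738 of the RefSeq table.

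The log2 ratio of replicate 1 over replicate 2 lay above 0 for 6 of the 6 genes and for 181 of the 401 genes tested. For each of the 401 genes whose mean count was at least 10, a two-sided exact binomial test set the split of its reads against the split of the TMM-scaled library sizes. The test speaks of these 2 libraries and of counting error, not of a condition. Of the 6 genes, 5 were higher in replicate 1 and none lower at an adjusted p under 0.05. Over all 401 genes, 43.4% passed, 19.7% higher and 23.7% lower in replicate 1. This balance depended on the scaling: it was 79 higher and 95 lower with TMM, and 93 higher and 84 lower when libraries were scaled by their totals or by the size factors of DESeq2. Deeply counted genes pass more often: of the 178 genes with a mean count of at least 900, which all members reach, 78.7% passed and 36.5% were higher in replicate 1. The median log2 ratio was 0.17 for the 6 genes and −0.03 for all 401.

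By size these differences were modest. Mir125a had the largest of the 6, a log2 ratio of 0.29, or 1.22-fold (adjusted p = 4.1e-41, exact binomial test with Benjamini-Hochberg adjustment). Mir100 followed at 0.24 (adjusted p = 7.2e-117, exact binomial test) and Mir99a at 0.18 (adjusted p = 5.7e-175, exact binomial test). Among the tested genes, 112 had a larger ratio in either direction than Mir125a, and 185 a larger one than Mir99a. Mir125b-1 had 0.16 (adjusted p = 1.4e-05, exact binomial test) and Mir99b 0.09 (adjusted p = 2.5e-36, exact binomial test), the smallest of the 6. Mir125b-2 had a log2 ratio of 0.14 and did not pass (adjusted p = 0.079, exact binomial test). It passed at 0.025 with total-count scaling or with DESeq2 size factors, and the adjusted p ranged from 0.025 to 0.13 over its 7 alternatives. For scale, the absolute log2 ratio of all tested genes had a median of 0.17, and their biological coefficient of variation was 14.0%. Of the 401 tested genes, 178 had a mean count of at least 900, as all members did. The numbers of larger ratios and the median thus include genes with more relative counting error than the members.

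Within clusters, the ratio of Mir99b over Mir125a was 2.98 on the log2 scale in replicate 1 and 3.18 in replicate 2. For Mir100 over Mir125b-1 it was 3.58 in replicate 1 and 3.51 in replicate 2. For Mir99a over Mir125b-2 it was 6.66 in replicate 1 and 6.62 in replicate 2. The ratio of the chromosome 17 cluster thus differed most between the libraries. Mir351 had a log2 ratio of −0.03 (adjusted p = 0.26, exact binomial test). Over all 401 tested genes, 19.7% were higher in replicate 1 and 23.7% lower, and 36.5% were higher where the mean count was at least 900. Of the let-7 family 9 genes were tested, of which 6 were higher in replicate 1 and none lower, with a median log2 ratio of 0.68. Mirlet7c-1 (0.60) and Mirlet7a-2 (0.51) did not pass. Of the 12 genes nearest in level, 3 were higher in replicate 1, 5 lower and 4 did not pass. Those higher were Mir19a (0.20), Mir26b (0.06) and Mir130b (0.03), and the lowest ratios were those of Mir411 (−0.40), Mir341 (−0.29) and Mir126a (−0.17).

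**Figure D4:**
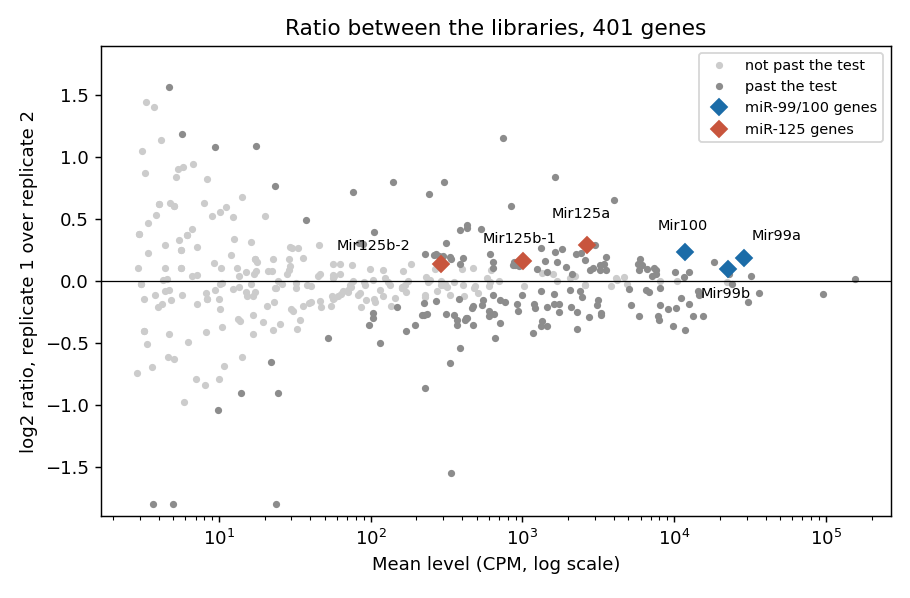
Log2 ratio of replicate 1 over replicate 2 against mean CPM on a log axis for 401 genes, dark grey where the exact binomial test passed and light grey where it did not, with 3 genes beyond ±1.8 drawn at the lower edge. The 6 genes, as diamonds, lie between 0.09 and 0.29.

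Marker miRNAs were set beside these differences, as the sum of each list in replicate 1, against that in replicate 2. Neural progenitor miRNAs had 20307 CPM, against 17746 CPM, over 5 counted genes, and Mir9-1 was not among the counted genes. Most of the sum was Mir92b (19407 CPM, against 17048 CPM). Mir9-3 had 363 CPM, against 315 CPM, Mir135a-1 350 CPM, against 277 CPM, and Mir135a-2 180 CPM, against 101 CPM. Mir9-2 had 5.84 CPM, against 5.32 CPM. Neuronal miRNAs had 661 CPM, against 498 CPM, over 8 genes. Endothelial Mir126a had 29029 CPM, against 31930 CPM, and the head mesenchyme list of 5 genes had 7845 CPM, against 7569 CPM. The higher mesenchyme sum came from Mir140 (3417 CPM, against 3057 CPM), while the other 4 genes had lower CPM in replicate 1 and the median log2 ratio of the list was −0.04. Epithelial miRNAs had 9042 CPM, against 7877 CPM, over 6 genes. Leukocyte miRNAs had 720 CPM, against 641 CPM, and red blood cell miRNAs 661 CPM, against 760 CPM, over 2 genes each. Hindbrain and trunk miRNAs had 245 CPM, against 309 CPM, over 6 genes. No counted marker was at 0 in both libraries, while Mir126b and Mir142 were not among the counted genes. The progenitor, neuronal, head mesenchyme, epithelial and leukocyte sums were higher in replicate 1, as were the CPM of the 6 genes. Genes with lower CPM in replicate 1 were 3 of 8 neuronal, 1 of 6 epithelial and 4 of 5 head mesenchyme miRNAs. No counted progenitor or leukocyte miRNA was lower. Of the lists with lower sums, 1 of 2 red blood cell and 2 of 6 hindbrain and trunk miRNAs had higher CPM in replicate 1. Several markers are numbered loci of the same name, such as Mir124a-1, Mir124a-2 and Mir124a-3, Mir128-1 and Mir128-2, or Mir9-2 and Mir9-3. Where such loci share a mature sequence, their counts are lower limits, as for miR-125b. This sharing was not examined for the markers, so a low neuronal or progenitor count need not mean a low level. The sums of different lists are therefore not compared with each other. The part of the marked cell types in the differences was not tested.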

How the data were processed

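Small RNA from embryonic forebrain, with fragments under 30 nt per the labels, was counted per gene in 2 libraries. The authors deposited raw counts of reads on either strand, on the strand of the gene and on the opposite strand, on mm10 with genome annotation M4 per the file notes. How reads were trimmed, aligned and assigned to genes is not given in the sources used here. Reads mapped to several places, outside genes or nowhere are tallied apart, at 5303260 reads in replicate 1 and 6090225 in replicate 2, and stayed out of library sizes. Differences in cloning efficiency between miRNA sequences were not measured.

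The gene-strand count, 96.7% of the either-strand count in replicate 1 and 96.4% in replicate 2, was used. Symbols, coordinates and context came from GENCODE M21, which matched 1894 of 1973 identifiers on the same build. CPM used the total of the gene counts. Log2 ratios used TMM factors from edgeR 4.0.16 (R 4.3.3) over the tested genes and a pseudocount of 0.5 counts, and mean log2 levels a pseudocount of 1 CPM. With 1 library a side no quasi-likelihood test was possible, so an exact binomial test with Benjamini-Hochberg adjustment over 401 genes was run in Python 3.11.15 with scipy 1.17.1, after being tested on simulated data. DESeq2 1.42.0 gave alternative size factors. P-values measure counting error between libraries, not biological spread. Hairpin windows were searched in RefSeq sequences, without a genome.

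The members and lists were chosen with earlier results of these data known. Named genes are the members, the counted gene next above and below each in mean CPM, the let-7 genes of the clusters and genes related by seed. The background at a mean count of 900 was added after the counts were seen.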

Additional observations from a re-analysis of the deposited data

How the results depend on the processing

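No paired analysis was possible because the 2 libraries form a single group. Leaving out either library left no comparison between them, and for levels, the summed share and the family ratio it gives only the value of the other library, which says nothing of stability. The summed share of the 6 genes was 2.53% of all reads in the files, those given to no gene included, against 6.73% of the gene counts, by construction. The log2 ratio of the miR-99/100 over the miR-125 genes was 3.08 for Mir99b over Mir125a alone, against 4.0 over all 6 genes, and leaves out the miR-125b genes that are lower limits. With windows of 20 bases, 94.8% of those of the Mir125b-1 hairpin occurred in no RefSeq entry of another gene, against 98.2% with 22. The hairpin of Mir125b-2 has no entry there, so neither value covers windows shared only with it. The number of the 6 genes past the test stayed at 5 or 6 over 5 alternatives of scaling, filter and strand, with 6 under total-count scaling and DESeq2 size factors. None of the 6 log2 ratios between libraries changed sign under the alternatives of scaling, filter, strand and pseudocount. The median over all tested genes was −0.03 with TMM and 0.0034 with total-count scaling. Depth did not limit detection of any member, but reads of several loci limit both miR-125b genes.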

Other observations

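The miR-10 genes of the Hox clusters are sequence relatives of miR-99/100 with another seed, and were counted at far lower levels. Their 5p arms are shown for comparison, with bases 2 to 8 in capitals.
miR-10a-5p: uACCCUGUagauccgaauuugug
miR-10b-5p: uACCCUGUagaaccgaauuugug
Mir10a had 96.1 CPM in replicate 1, against 133 CPM in replicate 2. Mir10b had 88.8 CPM in replicate 1, against 96.5 CPM in replicate 2. Together, the miR-99/100 genes exceeded these genes by 8.26 ± 0.36 on the log2 scale (SD, n = 2). Between the libraries Mir10a was lower in replicate 1, with a log2 ratio of −0.50 (adjusted p = 7.7e-06, exact binomial test), and Mir10b had −0.15 and did not pass (adjusted p = 0.33, exact binomial test). The members had ratios above 0.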
